A study of Mus musculus with 10 samples.

Results

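Keratinocytes that were switched to calcium in the presence of 5-azacytidine (5-AZA) were compared with keratinocytes that were kept undifferentiated. The comparison holds 4 of the 10 arrays of the series, chosen by their labels: 2 of differentiated cells treated with 5-AZA and 2 of undifferentiated cells. All were primary keratinocytes cultured from newborn FVB mice, wild type in both groups. Undifferentiated cells stayed in medium with 0.05 mM calcium, and the 5-AZA cells were moved to 0.4 mM calcium for 2 days with 5-AZA at 1 µM. The methods place the addition of 5-AZA 6 h after seeding, before the calcium switch, whereas the labels place it after 1 day in culture. The remaining arrays were 4 of cells differentiated in 0.4 mM calcium without the drug and 2 of differentiated cells that expressed A-C/EBP, a dominant negative of the C/EBP factors under tetracycline control. Because the undifferentiated cells received no 5-AZA, the effects of calcium and of the drug cannot be told apart in this contrast. A second contrast, 5-AZA against the 4 arrays differentiated without it, therefore tests the difference that came with the drug. DNA methylation itself was not measured on these arrays.

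In the epidermis, basal keratinocytes divide on the basement membrane, and cells that leave it stop dividing, build tight junctions and lipids, and assemble a crosslinked cornified envelope under the plasma membrane. Raising the calcium of the medium starts this programme in culture. 5-AZA is a cytidine analogue that is built into RNA and DNA, where it traps DNA methyltransferases, so that methylation is lost as cells copy their DNA. Demethylated promoters of germline and other silenced genes are the classical site of its action, and the drug also stresses and slows dividing cells.

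The values are log2 signals of the array, averaged over the probe sets of each gene, for 18194 genes. Differences are 5-AZA minus undifferentiated on this scale, with the standard error of limma's fit, and "rose" or "fell" means an adjusted p under 0.05. Across genes, the 2 arrays of 5-AZA correlated at r = 0.990 and the 2 undifferentiated arrays at r = 0.993, which describes genes and not independent replicates. The 5-AZA arrays differed from each other by more than 0.5 in 1627 genes and the undifferentiated arrays in 1037. The labels do not say whether the arrays of a group came from separate cultures, so the p-values measure the spread between arrays only. That spread was estimated within the groups of all 10 arrays of the series, not from the 4 compared arrays alone. Array medians lay between 4.64 and 4.78, and the mean of the 18 hybridization control probe sets lay between 9.03 and 11.3 without separating the groups.

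Both groups carried the markers of keratinocytes. Over the 13 measured markers, the mean level was 10.57 and 10.68 in undifferentiated cells and 10.60 and 10.29 with 5-AZA. Krt14, the basal type I keratin, read 11.89 and 11.86 in undifferentiated cells and 12.01 and 11.96 with 5-AZA. Its partner Krt5 read 13.93 and 13.93, then 13.43 and 12.75, and fell by 0.84 ± 0.23 (SE, adjusted p = 0.0322). The adhesion genes Cdh1 and Perp lay between 11.73 and 13.03 in all 4 arrays, and these and Krt14 were chosen after their values were seen. Of 13 measured markers of the cell type, 4 fell (Krt5, Trp63, Sfn and Cdh3) and 1 rose (Epcam, 1.23 ± 0.15, adjusted p = 0.000507), with a median difference of 0.00. The shares over all genes were 8.72% that fell and 7.42% that rose. The call of Krt5 ended without 5-AZA array 2 or without either undifferentiated array, with an adjusted p of up to 0.244.

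Differentiation with 5-AZA changed the expression of many genes. In all, 1350 genes rose, which is 7.42% of those tested, and 1586 fell, which is 8.72%, while the median difference over all genes was 0.03. At an unadjusted p under 0.05 the count was 4904. Without regard to any test, the difference exceeded 0.5 upward in 1705 genes and downward in 1900. Set against cells differentiated without the drug, 31 genes rose (0.170%) and 21 fell (0.115%), with 1655 at an unadjusted p under 0.05 and a median difference of 0.04. These calls are the tested difference between differentiation with and without the drug, and a p that missed the threshold does not show that a gene responded alike in both. The number of calls depended on single arrays: without 5-AZA array 2, 844 genes rose and 830 fell, without undifferentiated array 1, 806 and 868, and without undifferentiated array 2, 797 and 1189. Against differentiated cells, removal of 5-AZA array 2 left 1 gene in each direction, removal of 5-AZA array 1 left 7 that rose and 9 that fell, and removal of differentiated array 1 left 5 and 2, of array 2 left 7 and 3, and of array 4 left 11 and 4. Either undifferentiated array, which sets only the spread in that contrast, left 19 and 12 when removed.

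**Figure D1:**
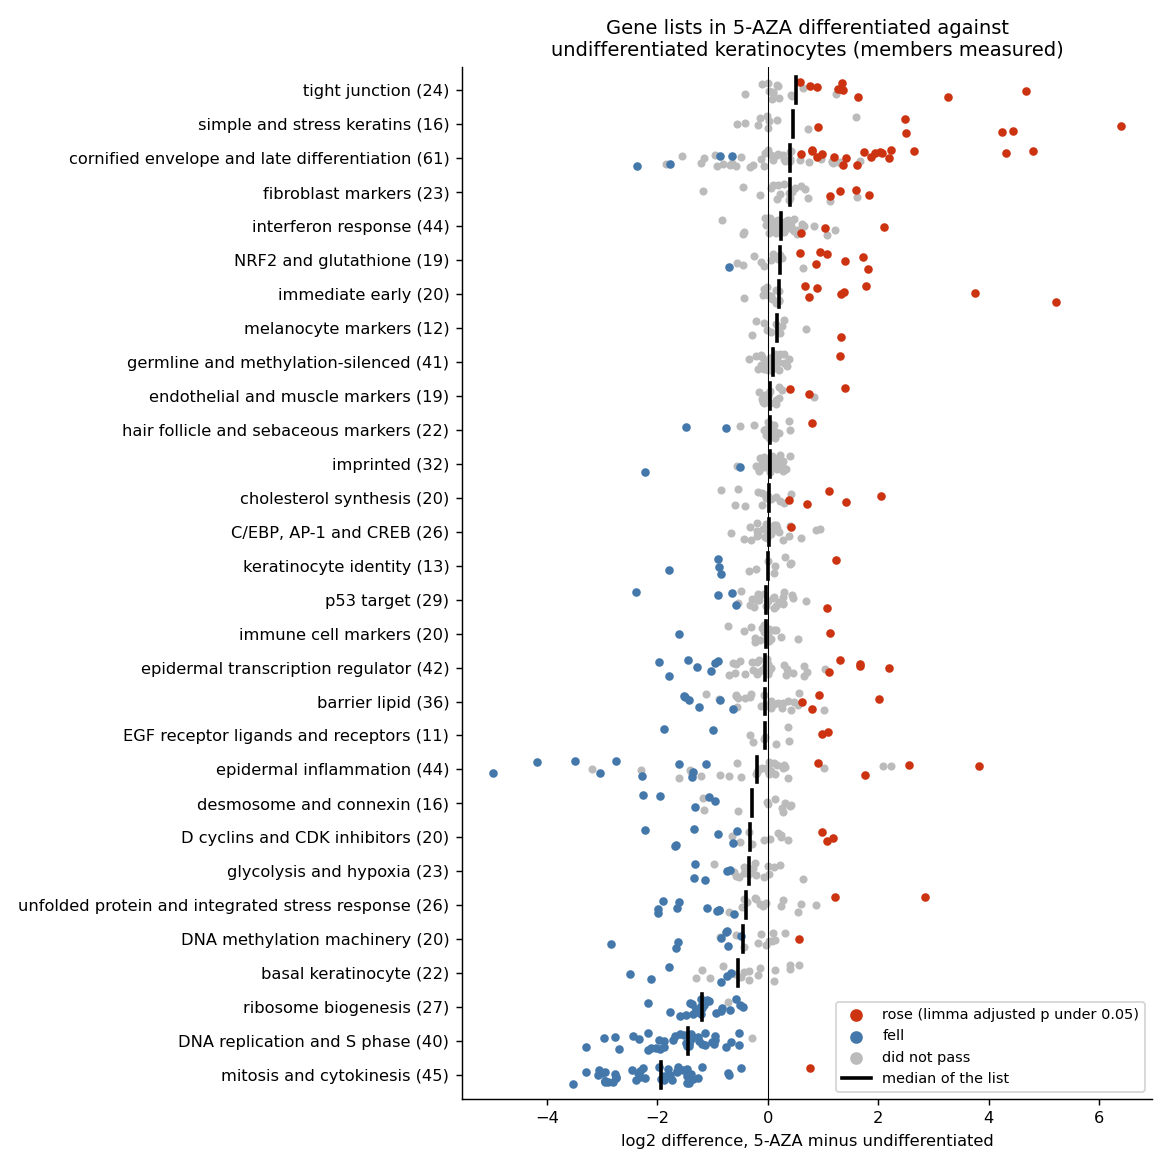
Log2 difference, 5-AZA minus undifferentiated, of each measured member of 30 gene lists (1 point per gene, number of members in brackets), with red for genes that rose, blue for genes that fell, grey for genes that did not pass and a black bar at the median of the list. The medians of the mitosis, DNA replication and ribosome biogenesis lists lie at -1.93, -1.44 and -1.20, and those of the tight junction list and the simple and stress keratins at 0.52 and 0.45.

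The largest rise was that of Krt79, a type II keratin of the hair follicle canal and sebaceous duct. It read 4.50 and 5.42 in undifferentiated cells, 12.11 and 10.60 with 5-AZA, and between 8.84 and 10.96 in cells differentiated without it. The leading genes were chosen among those whose 5-AZA and undifferentiated arrays did not overlap, and the fold of Krt79 was 84.2 (log2 6.40 ± 0.67, adjusted p = 0.000256). Egr2, a zinc finger factor of the immediate early class, rose from 4.30 and 4.18 to 9.72 and 9.18, a fold of 37.0 (5.21 ± 0.31, adjusted p = 2.14e-05). Krt79 and Anxa9 in undifferentiated array 1, Spink12 in undifferentiated array 2 and Egr2 in both read below the median probe set of the array, so their folds start from near the floor of detection. The other leading rises were those of the protease inhibitors Spink12 (6.27) and Cst6 (4.80), the annexin Anxa9 (5.20), the secreted chaperone Clu (5.12), the lipid droplet gene Cidea (4.84) and the claudin Cldn23 (4.68). None of these 8 genes passed the test against cells differentiated without the drug, where their adjusted p ran from 0.354 to 0.629.

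The largest fall was that of Tslp, a cytokine that keratinocytes release on injury, which read 11.48 and 11.53 in undifferentiated cells and 6.17 and 6.90 with 5-AZA, 31.3-fold lower (-4.97 ± 0.62, adjusted p = 0.000601). Stfa3, a stefin that inhibits cysteine proteases, fell from 12.28 and 12.60 to 7.30 and 9.23 (-4.17 ± 0.52). Its relative Stfa2l1 fell from 5.96 and 7.65 to 3.25 and 3.37 (-3.49 ± 0.39). Stefin genes have near-identical copies on chromosome 16, and probe sets could share signal between them. Depdc1a, a gene of mitotic cells, fell from 7.68 and 7.21 to 4.04 and 3.23 (-3.81 ± 0.38), the latter values below the median probe set. The remaining leaders were Mki67 (-3.53 ± 0.78), Ect2 (-3.29), Cdc6 (-3.28) and the pseudogene Sprr2j-ps (-3.22). The call of Mki67 ended without 5-AZA array 2 or without either undifferentiated array, with an adjusted p of up to 0.0962.

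The 250 bases before the RefSeq start of these leading genes are shown because the drug acts on methylated CpG, and the CpG dinucleotides are in capitals. RefSeq (GRCm38.p6) places the stretch of Krt79 at chr15:101940325-101940574 on the minus strand, of Egr2 at chr10:67535249-67535498 on the plus strand, of Stfa3 at chr16:36455393-36455642 on the minus strand and of Depdc1a at chr3:159495183-159495432 on the plus strand. Egr2 has 5 listed starts, of which the first is shown.
Krt79: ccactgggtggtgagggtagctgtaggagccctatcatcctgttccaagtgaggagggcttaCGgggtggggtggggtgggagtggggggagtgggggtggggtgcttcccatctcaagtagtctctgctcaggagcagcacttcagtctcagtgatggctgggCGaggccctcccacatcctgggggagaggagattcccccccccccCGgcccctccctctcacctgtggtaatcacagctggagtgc
Egr2: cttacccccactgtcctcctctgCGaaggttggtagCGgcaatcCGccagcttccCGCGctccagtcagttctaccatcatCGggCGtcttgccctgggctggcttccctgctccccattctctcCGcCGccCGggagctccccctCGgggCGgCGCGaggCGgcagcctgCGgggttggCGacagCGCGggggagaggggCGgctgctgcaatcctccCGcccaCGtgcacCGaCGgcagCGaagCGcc
Stfa3: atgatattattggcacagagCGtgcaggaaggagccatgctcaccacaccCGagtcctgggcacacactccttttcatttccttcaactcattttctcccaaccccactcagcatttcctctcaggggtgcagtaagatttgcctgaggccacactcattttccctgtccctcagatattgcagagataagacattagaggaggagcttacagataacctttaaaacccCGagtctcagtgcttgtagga
Depdc1a: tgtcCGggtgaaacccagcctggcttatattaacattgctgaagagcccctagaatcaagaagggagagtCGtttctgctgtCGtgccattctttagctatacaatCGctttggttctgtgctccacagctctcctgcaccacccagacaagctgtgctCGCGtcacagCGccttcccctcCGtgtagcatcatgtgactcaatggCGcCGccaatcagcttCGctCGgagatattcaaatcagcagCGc
Krt79 and Stfa3, which moved in opposite directions, hold 3 CpG each, whereas Egr2 holds 26 and Depdc1a 13. The methylation of these bases was not measured here.

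Over the 11792 genes with a single listed promoter, the median number of CpG in the 250 bases was 13. It was 14 among 813 genes that rose and 17 among 1076 that fell. Promoters with 3 or fewer CpG made up 19.2% of all genes, 14.4% of those that rose and 4.55% of those that fell. The letters TGACTCA, the AP-1 motif on either strand, occurred in 3.71% of all promoters, in 5.04% of those that rose and in 2.79% of those that fell. The CRE letters TGACGTCA occurred in 2.30%, 2.58% and 2.70%, and the C/EBP letters TTGCGCAA in 0.220%, 0.246% and 0.465%. These shares describe letters, not binding, and were not tested. The full set of genes was not limited to those with signal in these cells.

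Transcripts of the cell cycle were lower with 5-AZA in nearly every gene measured. Of 40 measured genes of DNA replication and S phase, 39 fell and 0 rose, with a median of -1.44, and between 35 and 39 fell when any array was left out. Cells differentiated without the drug had a median of -1.31 over the same undifferentiated arrays, and none of the list passed against them. Prim1, the catalytic subunit of primase, read 9.15 and 8.92 in undifferentiated cells and 7.11 and 7.02 with 5-AZA (-1.97 ± 0.15, adjusted p = 5.63e-05). Ccne2, the cyclin that drives entry into S phase, read 8.60 and 8.23, then 5.86 and 6.10 (-2.43 ± 0.19). The replication factor Rfc5 (-1.48) and the origin recognition gene Orc1 (-1.39) also fell, and all 7 Mcm genes of the replicative helicase fell, with a median of -2.02. The call of Orc1 ended when the brightest probe set alone stood for the gene.

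Of 45 genes of mitosis and cytokinesis, 44 fell, with a median of -1.93, and between 41 and 44 fell when any array was left out. The kinetochore genes Nuf2 (-1.85 ± 0.17, adjusted p = 0.000126) and Ttk (-1.93 ± 0.18), the condensin subunit Ncapg (-2.94 ± 0.29) and the spindle gene Hmmr (-2.31 ± 0.23) led by adjusted p. Nuf2 and Ttk with 5-AZA lay below the median probe set of their arrays, at 3.79 to 4.32, so that the fold of these genes may be understated, and the 2 probe sets of Ttk gave -3.76 and -0.10. Bulk RNA cannot tell fewer dividing cells from less RNA per dividing cell. The median of the mitosis list in cells differentiated without the drug was -1.80 against the same undifferentiated arrays, and none of its 44 falling genes differed between differentiation with and without 5-AZA by the test.

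The exception was Mybl2, which encodes B-Myb, a transcription factor that activates genes of S phase and mitosis. It read 6.73 and 6.09 in undifferentiated cells, 7.29 and 7.04 with 5-AZA, and 5.18, 5.13, 4.95 and 5.29 in cells differentiated without it. Both 5-AZA arrays stood above all 6 other arrays, and the 4 differentiated arrays stood below all undifferentiated ones. Mybl2 rose by 0.76 ± 0.20 against undifferentiated cells (adjusted p = 0.0242) and by 2.03 ± 0.17 against differentiated cells (adjusted p = 0.00607), a fold of 4.08. Its 2 probe sets gave 1.18 and 0.34 against undifferentiated cells and 2.62 and 1.43 against differentiated cells. The rise over undifferentiated cells ended without either 5-AZA array or without undifferentiated array 2 (adjusted p up to 0.163), whereas the difference from differentiated cells held without each array in turn (adjusted p up to 0.0406). No other gene of the mitosis list rose or fell against differentiated cells.

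**Figure D2:**
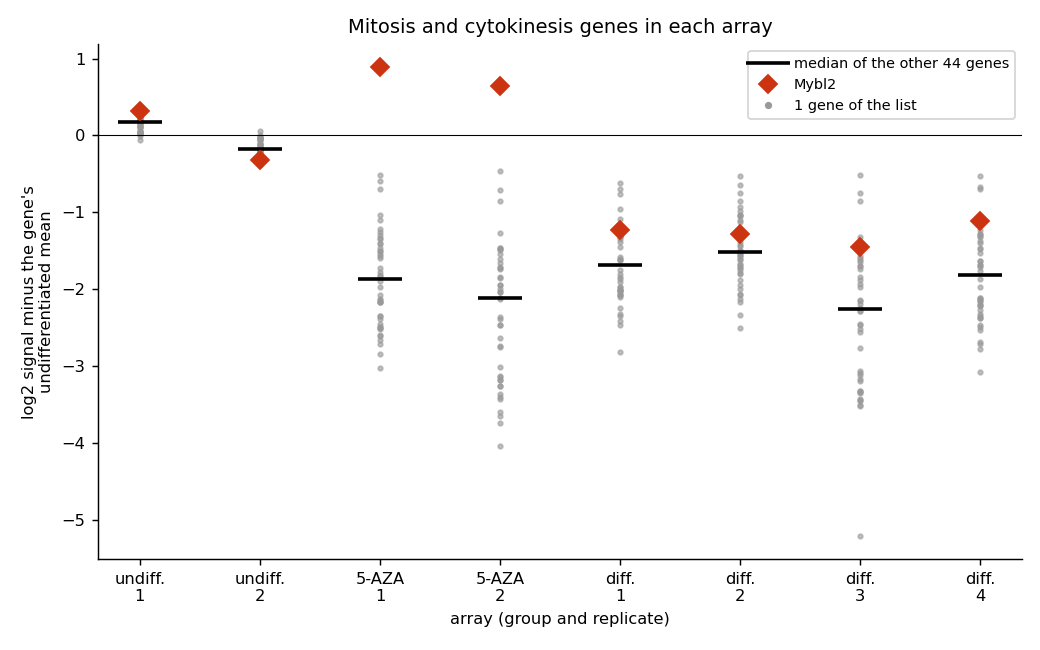
Log2 signal of the 45 mitosis and cytokinesis genes in each array, relative to the mean of the undifferentiated arrays for each gene (grey points, 1 per gene; black bars, median of the 44 genes other than Mybl2; red diamonds, Mybl2). Mybl2 lies above 0 in both 5-AZA arrays, while the other 44 genes lie below 0 there and in all 4 arrays differentiated without the drug.

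Among 20 D cyclins, CDK inhibitors and their partners, 3 rose and 7 fell, where 7.42% of all genes rose and 8.72% fell. The median was -0.32. Ccnd1 and Ccnd2, the D cyclins that link growth signals to the cycle, fell by 1.67 ± 0.45 and 1.66 ± 0.24 on the log2 scale. Cdkn1a and Cdkn2b, inhibitors of cyclin-dependent kinases, rose by 1.08 ± 0.15 and 1.17 ± 0.18. Rbl1, the pocket protein p107, fell by 0.90 ± 0.13, averaged over 4 probe sets from -2.28 to 0.18. The call of Ccnd1 ended without 5-AZA array 2 or without either undifferentiated array, with an adjusted p of up to 0.234, and 4 genes of the list instead of 7 fell without 5-AZA array 2 or undifferentiated array 1.

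Of 27 measured genes of ribosome biogenesis, 25 fell and 0 rose, with a median of -1.20, and between 19 and 26 fell when any array was left out. Cells differentiated without the drug had a median of -0.97 over the same undifferentiated arrays. All 27 genes were lower with 5-AZA than in those cells, with a median of -0.16, but 0 passed. Nop56, a core protein of the particles that methylate ribosomal RNA, read 10.66 and 10.72 in undifferentiated cells and 9.21 and 8.99 with 5-AZA (-1.59 ± 0.11, adjusted p = 4.4e-05). Dkc1, the pseudouridine synthase dyskerin, fell by 2.17 ± 0.17 on the log2 scale. Rps19, a protein of the small ribosomal subunit, read 13.27 and 13.09, then 13.27 and 13.53, and did not pass (0.22 ± 0.19, adjusted p = 0.537).

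Several genes that write and maintain DNA methylation fell. Uhrf1, which brings the maintenance methyltransferase to newly copied DNA, read 8.61 and 8.18 in undifferentiated cells, 6.09 and 5.02 with 5-AZA and between 4.75 and 6.34 in cells differentiated without it (-2.84 ± 0.49, adjusted p = 0.00317). Dnmt1, the maintenance enzyme itself and the main protein trapped by the drug, read 8.24 and 7.96, then 6.97 and 5.92, and between 6.06 and 7.07 without it (-1.65 ± 0.37, adjusted p = 0.0132). The undifferentiated arrays were above all others for both genes, and the 5-AZA arrays lay within or just below the range of the cells differentiated without the drug. Hells, a remodeller needed for methylation (-1.62 ± 0.27), the de novo methyltransferase Dnmt3b (-0.71 ± 0.14) and the base excision nuclease Apex1 (-0.74 ± 0.12) fell. In total 8 of 20 genes of the methylation machinery fell, 1 rose and 11 did not pass, where 8.72% of all genes fell and 7.42% rose. The median of the list was -0.46, and none of its genes passed against differentiated cells. Without undifferentiated array 1, 3 of the list fell and the calls of Dnmt1 and Dnmt3b ended (adjusted p up to 0.109 and 0.0647), and without 5-AZA array 2, 4 fell and that of Dnmt1 ended. The call of Dnmt3b, whose 2 probe sets gave -1.31 and -0.12, also ended when the brightest was used. Dnmt1 was chosen after its values were seen.

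Of 22 markers of the basal layer, 6 fell, 0 rose and 16 did not pass, where 8.72% of all genes fell and 7.42% rose. The median was -0.54, with 5 of the markers above 0. Cells differentiated without the drug had a median of -0.37 over the same undifferentiated arrays, and none of the list passed against them. Col17a1, the hemidesmosomal collagen that anchors cells to the basement membrane, read 12.57 and 12.36 in undifferentiated cells and 10.45 and 9.48 with 5-AZA (-2.50 ± 0.33, adjusted p = 0.000851). The integrin Itga6 fell by 2.11 ± 0.40 and the basal transcription factor Trp63 by 1.79 ± 0.27, and the linker gene Dst fell by 0.66 ± 0.17, averaged over 4 probe sets from -1.51 to 0.21. Without 5-AZA array 2 the list held 3 calls, and the call of Dst ended without either 5-AZA array or undifferentiated array 2 (adjusted p up to 0.184).

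Of 16 desmosome and gap junction genes, 5 fell, 0 rose and 11 did not pass, with 7 of the 16 above 0. Among all genes, 8.72% fell and 7.42% rose. The median of the list was -0.28 and ran from -0.49 to 0.007 over the removal of single arrays. Dsc3, the desmocollin of basal cells, read 10.73 and 11.15, then 9.90 and 9.36 (-1.31 ± 0.24, adjusted p = 0.00496). The connexins Gja1 (-2.26 ± 0.39) and Gjb6 (-1.95 ± 0.39) and the plakophilin Pkp4 (-0.96 ± 0.17) fell. Dsc1, the desmocollin of upper layers, read 8.33 and 9.63 in undifferentiated cells, 7.64 and 8.02 with 5-AZA and between 8.86 and 9.35 in cells differentiated without it. The 5-AZA arrays were the lowest of the 8, but neither difference passed (-1.15 ± 0.43, adjusted p = 0.112, and -1.27 ± 0.37 against differentiated cells, adjusted p = 0.293). Dsc2 read 8.89 and 8.86, then 9.09 and 9.17, and did not pass (adjusted p = 0.534).

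Of 24 measured tight junction genes, 10 rose, 0 fell and 14 did not pass, where 7.42% of all genes rose and 8.72% fell. The median of the list was 0.52, and 7 to 10 of its genes rose when any array was left out. Cldn3 read 8.11 and 7.09 in undifferentiated cells and 11.13 and 10.60 with 5-AZA, a fold of 9.63 (3.27 ± 0.37, adjusted p = 0.000385). The polarity gene Crb3 (1.35 ± 0.15) and the junction protein gene Marveld3 (1.28 ± 0.16) rose as well, the latter averaged over 3 probe sets from -0.04 to 2.45. Cldn4 read 11.19 and 10.37, then 12.66 and 12.15, a fold of 3.09 (1.63 ± 0.46, adjusted p = 0.0383), and lay between 11.66 and 12.88 in cells differentiated without the drug. Its 5-AZA and undifferentiated arrays did not overlap, yet the call ended without any 1 of 6 arrays (either 5-AZA array, either undifferentiated array, and differentiated array 1 or 4), with an adjusted p of up to 0.229.

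The keratins of simple epithelia were among the largest rises. Krt18 read 6.60 and 6.21 in undifferentiated cells and 11.34 and 10.34 with 5-AZA, a fold of 21.7 (4.44 ± 0.33, adjusted p = 5.02e-05). Its partner Krt8 rose from 6.05 and 5.37 to 10.55 and 9.36 (4.25 ± 0.41). Both keratins form the filaments of simple epithelia and are not typical of stratified epidermis. They lay between 9.76 and 11.07 in cells differentiated without the drug, and neither differed from those by the test. Krt80, a keratin of differentiating epithelia, rose by 2.49 ± 0.25. In all, 6 of 16 simple and stress keratins rose and 0 fell, with a median of 0.45, where 7.42% of all genes rose and 8.72% fell.

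The list of late differentiation, with the precursors and enzymes of the cornified envelope, held 61 measured genes. Of these, 19 rose and 4 fell while 38 missed the threshold, where 7.42% of all genes rose and 8.72% fell. The median of the list was 0.41, against 0.72 for cells differentiated without the drug over the same undifferentiated arrays, which both comparisons share. The mean level of the list was 8.08 and 8.95 in undifferentiated cells, 8.67 and 9.39 with 5-AZA, and between 9.26 and 9.43 without it. Undifferentiated array 2 stood above 5-AZA array 1, so the groups overlapped on this mean. The count of rising genes fell to 12 without 5-AZA array 2 or undifferentiated array 1, that of falling genes ran from 2 (without 5-AZA array 1, undifferentiated array 2 or any 1 of the 4 differentiated arrays) to 7 (without undifferentiated array 1), and the median ran from 0.04 to 0.80 over the removal of single arrays.

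The proteases that shed the outermost cells and several envelope scaffolds rose in the presence of 5-AZA. Klk6, a kallikrein, read 8.48 and 9.84 in undifferentiated cells, 13.46 and 13.48 with 5-AZA and between 12.88 and 13.38 without it, a fold of 19.9 over undifferentiated cells (4.31 ± 0.35, adjusted p = 7.19e-05). Of 7 Klk genes, 6 rose, with a median of 2.03, among them Klk11 (2.03 ± 0.19) and Klk7 (2.06 ± 0.27), the latter chosen after its values were seen. Scel, which encodes the envelope precursor sciellin, rose by 2.23 ± 0.18, the mean of 2 probe sets at 0.04 and 4.41, and the protease inhibitor Cst6 by 4.80 ± 0.37. Envoplakin (Evpl, 0.89 ± 0.20) and periplakin (Ppl, 1.19 ± 0.15), which start the envelope at the membrane, corneodesmosin (Cdsn, 1.86 ± 0.25) and Crct1 (2.19 ± 0.41) rose too, and these 4 were likewise chosen after their values were seen. The call of Evpl ended without 5-AZA array 1 or either undifferentiated array (adjusted p up to 0.086). None of the Klk genes, Scel, Evpl or Ppl passed against differentiated cells.

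Other envelope precursors were not higher than in undifferentiated cells. Ivl, which encodes involucrin, an early substrate of envelope crosslinking, read 9.72 and 10.38 in undifferentiated cells, 9.50 and 9.45 with 5-AZA and 11.11, 10.78, 10.72 and 10.79 in cells differentiated without it. Both 5-AZA arrays lay below all 6 others. Ivl did not pass against undifferentiated cells (-0.58 ± 0.20, adjusted p = 0.0809), but fell by 1.38 ± 0.17 against cells differentiated without the drug, in which it was 2.60-fold higher (adjusted p = 0.024). It was the only gene of the envelope list that passed against differentiated cells, and its 2 probe sets gave -1.48 and -1.28. That call ended without either 5-AZA array or without differentiated array 1, 2 or 4, with an adjusted p of up to 0.149.

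Among the small proline-rich proteins, which bridge envelope components, Sprr1a rose from 12.43 and 13.20 to 14.05 and 14.29 with 5-AZA, a fold of 2.56 (1.35 ± 0.29, adjusted p = 0.0104), and read between 13.57 and 14.33 without the drug. Sprr2h fell from 12.45 and 13.01 to 10.25 and 11.67 (-1.77 ± 0.36, adjusted p = 0.00777), and read between 12.21 and 12.45 without it. Sprr2f read 5.62 and 6.91 in undifferentiated cells, 4.77 and 6.12 with 5-AZA and between 7.44 and 8.35 without it, and passed neither test (adjusted p = 0.373, and 0.0705 against differentiated cells). Over the 8 Sprr genes measured, 1 rose, 1 fell and 6 did not pass, where 7.42% of all genes rose and 8.72% fell. Their median was -0.75 against undifferentiated and -1.34 against differentiated cells. The 15 Lce genes of the late envelope had a median of 0.59 against undifferentiated cells with 0 calls, and all 15 lay below differentiated cells, with a median of -0.63 and 0 calls. Sprr2h and Sprr2f were chosen after their values were seen, and the Sprr and Lce genes are clusters of close relatives on chromosome 3 whose probe sets could share signal. The call of Sprr1a ended without 5-AZA array 2 or undifferentiated array 1 (adjusted p up to 0.0886), and that of Sprr2h without undifferentiated array 2 (adjusted p up to 0.0628).

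**Figure D3:**
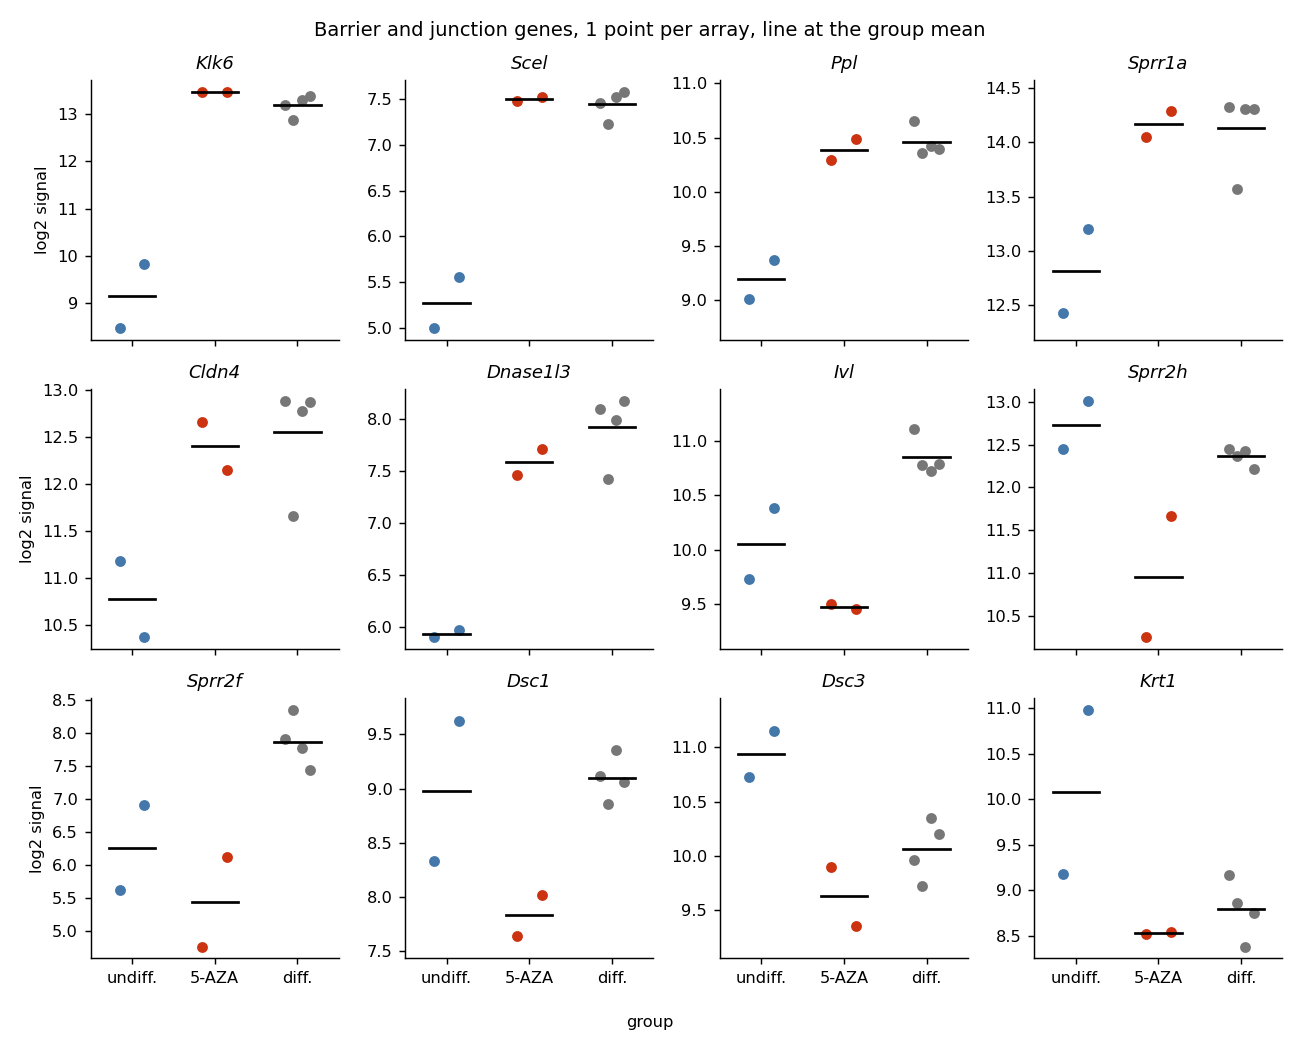
Log2 signal of 12 barrier and junction genes in the 2 undifferentiated arrays (blue), the 2 arrays with 5-AZA (red) and the 4 arrays differentiated without it (grey), with a line at each group mean and a separate axis per gene. Klk6, Scel, Ppl, Sprr1a, Cldn4 and Dnase1l3 are higher with 5-AZA than in undifferentiated cells, while the 5-AZA arrays are the lowest or overlap the lowest for Ivl, Sprr2h, Sprr2f and Dsc1.

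The promoters of Sprr1a and Cldn4 are shown because the study names both genes, and that of Ivl is set beside them. Each holds the AP-1 motif. Sprr1a and Cldn4 rose with 5-AZA, and Ivl was lower than in cells differentiated without it. No usable sequence was listed for Dnase1l3, which was chosen with the pair. The 250 bases before the RefSeq start (GRCm38.p6) lie at chr3:92485882-92486131, chr5:134946935-134947184 and chr3:92573736-92573985, each on the minus strand, and capitals mark TGACTCA or its reverse complement TGAGTCA.
Sprr1a: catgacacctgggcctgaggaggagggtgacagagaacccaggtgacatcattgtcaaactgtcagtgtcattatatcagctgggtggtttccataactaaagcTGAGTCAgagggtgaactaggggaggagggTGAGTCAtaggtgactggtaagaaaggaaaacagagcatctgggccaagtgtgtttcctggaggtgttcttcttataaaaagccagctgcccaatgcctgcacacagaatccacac
Cldn4: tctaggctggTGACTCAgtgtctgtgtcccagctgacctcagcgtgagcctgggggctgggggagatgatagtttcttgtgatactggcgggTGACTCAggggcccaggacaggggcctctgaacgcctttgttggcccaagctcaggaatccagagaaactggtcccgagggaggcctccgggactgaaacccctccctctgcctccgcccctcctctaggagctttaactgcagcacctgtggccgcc
Ivl: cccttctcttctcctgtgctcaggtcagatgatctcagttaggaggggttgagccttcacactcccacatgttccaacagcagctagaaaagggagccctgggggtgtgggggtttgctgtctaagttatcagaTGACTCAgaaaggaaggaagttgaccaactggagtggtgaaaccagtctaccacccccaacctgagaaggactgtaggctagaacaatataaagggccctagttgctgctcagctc
Sprr1a and Cldn4 hold 2 copies of the motif and Ivl holds 1. The stretch of Depdc1a, a gene that fell, holds 1 copy too, starting 55 bases before the start and left in lower case where it is printed. Sprr1a and Ivl hold 0 CpG in this window, and Cldn4 holds 7. Ivl was added to the pair after its values were seen.

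The suprabasal keratins and loricrin did not pass in either direction. Krt1 read 9.18 and 10.98 in undifferentiated cells and 8.52 and 8.55 with 5-AZA, and did not pass (-1.54 ± 0.48, adjusted p = 0.0564). Its partner Krt10 read 8.33 and 9.96, then 7.74 and 8.62, and the arrays overlapped (-0.96 ± 0.47, adjusted p = 0.227). Lor, the main protein of the finished envelope, read 7.43 and 8.32, then 7.05 and 8.06, and overlapped too (-0.32 ± 0.38, adjusted p = 0.687). Without the drug, Krt1 lay between 8.38 and 9.17, Krt10 between 7.60 and 8.10 and Lor between 7.84 and 8.43. None of these genes passed against differentiated cells. Undifferentiated array 2 was the highest of the 8 arrays for Krt1 and Krt10. Hornerin (Hrnr), which was chosen after its values were seen, read 4.12 and 7.10, then 3.19 and 3.29, and its call (-2.37 ± 0.70, adjusted p = 0.0454) ended on the removal of any array but undifferentiated array 1 (adjusted p up to 0.158), with a difference of -0.88 without undifferentiated array 2. Dnase1l3, a secreted DNase, read 5.90 and 5.98 in undifferentiated cells and 7.46 and 7.71 with 5-AZA, a fold of 3.13 (1.64 ± 0.38, adjusted p = 0.0141), and its call ended without 5-AZA array 2 or either undifferentiated array (adjusted p up to 0.0931).

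Lipids of the barrier showed a mixed picture. Of 20 genes of cholesterol synthesis, 5 rose and 0 fell, where 7.42% of all genes rose and 8.72% fell. Their median was 0.03, whereas cells differentiated without the drug had a median of 0.57 over the same undifferentiated arrays. Idi1, the isomerase of isoprenoid synthesis, read 9.59 and 9.63 in undifferentiated cells, 11.01 and 11.05 with 5-AZA and between 11.27 and 11.46 without it (1.42 ± 0.12, adjusted p = 9.74e-05). Tm7sf2 (2.04 ± 0.29), Dhcr7 (1.12 ± 0.23) and Pmvk (0.72 ± 0.11), enzymes of the same route, rose as well. All 20 genes were lower with 5-AZA than in cells differentiated without it, with a median of -0.45, but none of these differences passed. The widest was that of Insig1, the sterol sensor, which read 7.02 and 5.78 with 5-AZA and between 7.50 and 8.42 without it (-1.51 ± 0.32, adjusted p = 0.125), and it was chosen after its values were seen. Without 5-AZA array 1 or undifferentiated array 1, 3 genes of the list rose, and the call of Dhcr7 ended (adjusted p up to 0.0712).

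**Figure D4:**
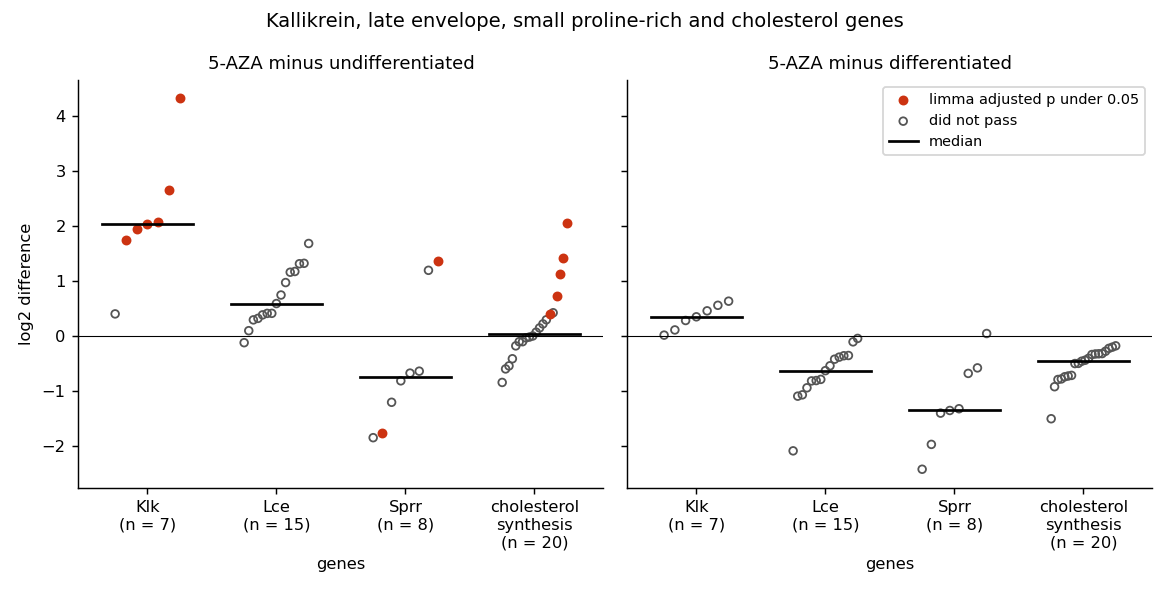
Log2 difference of the Klk, Lce, Sprr and cholesterol synthesis genes with 5-AZA, against undifferentiated cells on the left and against cells differentiated without it on the right (1 point per gene; filled red, limma adjusted p under 0.05; black bars, medians). The cholesterol genes and the Lce genes lie below 0 on the right, and the Klk genes lie above 0 in both panels.

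Among 36 genes of ceramide and fatty acid metabolism, 4 rose and 6 fell, with a median of -0.05. Over all genes, 7.42% rose and 8.72% fell. The ceramidase Acer1 (-1.50 ± 0.20), the desaturase Degs1 (-0.87 ± 0.13) and the lipoxygenase Alox12b (-1.24 ± 0.23) fell, while the fatty acid transporter Slc27a4 rose by 0.92 ± 0.18. Acer1 and Alox12b with 5-AZA lay below the median probe set, at 3.84 to 4.40. Without 5-AZA array 1, 1 gene of the list rose and 3 fell, and without undifferentiated array 1, 2 rose.

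Of 44 genes of epidermal inflammation, 10 fell, 4 rose and 30 did not pass, with a median of -0.19, where 8.72% of all genes fell and 7.42% rose. The count of falling genes ran from 7 to 13 over the removal of single arrays. Besides Tslp and the stefins, the prostaglandin synthase Ptgs2 read 11.43 and 11.67 in undifferentiated cells, 10.25 and 9.65 with 5-AZA and between 10.54 and 11.19 without it (-1.60 ± 0.27, adjusted p = 0.00304). The defensin Defb4, chosen after its values were seen, rose from 4.69 and 5.09 to 7.61 and 9.79 (3.82 ± 0.74, adjusted p = 0.00626). The count of rising genes was 1 without undifferentiated array 1, 2 without either 5-AZA array and 6 without either A-C/EBP array.

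Of 20 immediate early genes, 8 rose, 0 fell and 12 did not pass, with 5 of the 20 below 0. Among all genes, 7.42% rose and 8.72% fell. The median of the list was 0.20 and ran from -0.01 to 0.58 over the removal of single arrays. Dusp4, a phosphatase that switches off MAP kinases, read 6.26 and 6.16 in undifferentiated cells and 10.19 and 9.72 with 5-AZA, a fold of 13.4 (3.75 ± 0.22, adjusted p = 2.14e-05). Its relative Dusp5 (1.37 ± 0.14), the small Maf gene Maff (1.77 ± 0.32) and Egr2 rose as well. Without 5-AZA array 1 or undifferentiated array 1, 5 genes of the list rose.

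The C/EBP, AP-1 and CREB factors bind the promoters of many differentiation genes, and nearly all of their transcripts missed the threshold. Of 26 genes, 1 rose and 0 fell, with a median of 0.03, where 7.42% of all genes rose and 8.72% fell. Cebpb read 9.77 and 10.09 in undifferentiated cells and 10.78 and 9.62 with 5-AZA (0.27 ± 0.36, adjusted p = 0.72). Cebpa (-0.31), Jun (-0.05), Fos (-0.18) and Creb1 (-0.33) did not pass, with adjusted p from 0.169 to 0.95. Array 1 with 5-AZA was above array 2 for all of these. The single call was that of Creb3 (0.42 ± 0.11, adjusted p = 0.0296), a membrane-bound relative, which ended without either 5-AZA array or either undifferentiated array (adjusted p up to 0.168) and without the probe sets whose suffixes mark shared sequence or with an intensity trend in the fit. On the removal of either A-C/EBP array, 3 genes of the list rose. Among further genes of the study's interest, Junb (-0.19), Fosl2 (0.01), the cytokine Il1b (0.37) and the steroid transport gene Star (0.01) did not pass either, with adjusted p from 0.222 to 0.992.

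Among epidermal transcription regulators, calls went both ways. Of 42 genes, 5 rose and 7 fell, with a median of -0.04, where 7.42% of all genes rose and 8.72% fell. Hopx, a homeodomain protein of upper layers, rose from 10.95 and 11.72 to 12.98 and 13.04 (1.67 ± 0.22, adjusted p = 0.000749). Elf5, an Ets factor of differentiated epithelium, rose by 2.19 ± 0.20 from levels below the median probe set. The Notch ligand Dll1 fell by 1.96 ± 0.31. Without 5-AZA array 2 or undifferentiated array 1, 4 genes of the list fell. Among 11 ligands and receptors of the EGF family, Nrg1 (-1.88 ± 0.22) and Epgn (-0.99 ± 0.29) fell and Tgfa (0.98 ± 0.24) and Btc (1.08 ± 0.28) rose. Egfr itself did not pass (0.15 ± 0.12, adjusted p = 0.501). The calls of Tgfa and Btc ended without either 5-AZA array or either undifferentiated array (adjusted p up to 0.122 and 0.118), and that of Epgn on the removal of any 1 of 7 arrays (both 5-AZA arrays, both A-C/EBP arrays, differentiated arrays 1 and 2 and undifferentiated array 2, adjusted p up to 0.277).

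Of 19 genes of the NRF2 and glutathione response to oxidants, 7 rose and 1 fell, where 7.42% of all genes rose and 8.72% fell. The median was 0.22. Cells differentiated without the drug had a median of 0.37 over the same undifferentiated arrays. The median of 5-AZA against those cells was -0.14, and 1 gene passed there. Nqo1, a quinone reductase and standard NRF2 target, read 6.10 and 6.09 in undifferentiated cells and 7.79 and 8.04 with 5-AZA (1.82 ± 0.14, adjusted p = 5.98e-05). It lay between 7.86 and 8.23 in cells differentiated without the drug. The transferase Gsta4 (1.40 ± 0.19) and the sulfiredoxin Srxn1 (0.87 ± 0.12) rose too, against 1.68 and 0.75 for differentiation without the drug. Gpx2, a glutathione peroxidase of epithelia, read 5.30 and 5.38 in undifferentiated cells, 7.08 and 7.04 with 5-AZA and 5.34, 6.11, 5.89 and 5.59 in cells differentiated without it. Both 5-AZA arrays stood above all others, and Gpx2 rose by 1.72 ± 0.22 (adjusted p = 0.000651) and against differentiated cells by 1.32 ± 0.19 (adjusted p = 0.0305). The latter call ended without either 5-AZA array, either undifferentiated array or differentiated array 1 or 4, with an adjusted p of up to 0.192.

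Of 26 genes of the unfolded protein and integrated stress responses, 10 fell and 2 rose, with a median of -0.40. Phgdh and Psat1, enzymes of serine synthesis under the control of ATF4, fell by 1.90 ± 0.12 and 1.61 ± 0.17 on the log2 scale, and their differences from differentiated cells (-0.59 and -0.84) did not pass (adjusted p = 0.0564 for both). Without 5-AZA array 1, 4 genes of this list rose. Manf, a secreted protein of the endoplasmic reticulum, fell by 1.64 ± 0.25. Nupr1, a stress-induced chromatin protein, rose from 7.84 and 8.55 to 10.58 and 11.51 (2.85 ± 0.36, adjusted p = 0.000617). Of 29 p53 targets, 4 fell and 1 rose, with a median of -0.03, where 8.72% of all genes fell and 7.42% rose. The rise was that of Cdkn1a, the fall with the smallest adjusted p that of Ckap2 (-2.39 ± 0.31), a spindle gene. Without 5-AZA array 2 or undifferentiated array 1, 1 p53 target fell, and 3 rose without 5-AZA array 2.

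Of 23 genes of glycolysis and hypoxia, 5 fell and 0 rose, with a median of -0.33, where 8.72% of all genes fell and 7.42% rose. Among those that fell were lactate dehydrogenase Ldha (-0.74 ± 0.17), hexokinase Hk2 (-1.34 ± 0.37) and the peptide hormone gene Adm (-1.31 ± 0.25). Only 1 call of the list was left without 5-AZA array 2 or either undifferentiated array. The calls of Ldha and Hk2 ended there, that of Hk2 also without differentiated array 1, with an adjusted p of up to 0.103 and 0.254.

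Most of the listed germline and other methylation-silenced genes stayed low. Rpl39l and Tcfl5, genes of testis and spermatocytes that rose and are described below, were not on this list. Of 41 measured genes, 36 lay below the median probe set in all 4 arrays, and 1 rose and 0 fell, where 7.42% of all genes rose and 8.72% fell. The median difference was 0.10, and the list mean was 3.66 and 3.72 in undifferentiated cells and 3.77 and 3.82 with 5-AZA. The gene of the list that rose was Rhox5, an X-linked homeobox gene of the reproductive tract that is silenced by methylation in most somatic cells. It read 4.16 and 4.40 in undifferentiated cells, 5.86 and 5.31 with 5-AZA and 4.33, 4.40, 4.69 and 4.23 in cells differentiated without it. Both 5-AZA arrays stood above all 6 others, which lay below the median probe set. Rhox5 rose by 1.31 ± 0.20 (adjusted p = 0.00155) and against differentiated cells by 1.18 ± 0.17 (adjusted p = 0.0324). The latter call ended without either 5-AZA array or without differentiated array 1, 2 or 4 (adjusted p up to 0.126).

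The promoters of Rhox5 and Mybl2, the gene of the germline list and the gene of the mitosis list that were higher with 5-AZA than in both other groups, are printed with CpG in capitals. They lie at chrX:37754358-37754607 and chr2:163054385-163054634 (RefSeq, GRCm38.p6), both on the plus strand, and were chosen after their values were seen.
Rhox5: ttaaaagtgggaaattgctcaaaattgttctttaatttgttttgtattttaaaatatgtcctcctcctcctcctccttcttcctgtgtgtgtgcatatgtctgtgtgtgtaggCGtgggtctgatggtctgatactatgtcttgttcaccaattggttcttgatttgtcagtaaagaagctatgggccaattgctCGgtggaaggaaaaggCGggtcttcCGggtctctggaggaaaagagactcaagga
Mybl2: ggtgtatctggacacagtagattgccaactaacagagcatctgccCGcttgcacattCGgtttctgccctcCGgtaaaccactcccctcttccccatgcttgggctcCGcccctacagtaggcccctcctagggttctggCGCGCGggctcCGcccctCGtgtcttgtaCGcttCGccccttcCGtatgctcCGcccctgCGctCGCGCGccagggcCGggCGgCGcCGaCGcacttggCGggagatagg
The stretch of Rhox5 holds 4 CpG and that of Mybl2 holds 23, so these genes lie on either side of the median of 13. No motif of the AP-1, CRE or C/EBP letters is in these windows.

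Imprinted genes showed 0 rises and 2 falls of 32, with a median of 0.04, where 8.72% of all genes fell and 7.42% rose. Mest, which is expressed from the paternal allele, fell from 7.20 and 6.89 to 4.80 and 4.86 and read between 5.28 and 6.15 without the drug (-2.22 ± 0.28, adjusted p = 0.000592). Plagl1, a zinc finger gene, fell by 0.51 ± 0.13 over 3 probe sets from -1.03 to 0.00, and its call ended without either array of either group (adjusted p up to 0.119), after quantile normalization and without the probe sets of shared sequence. Of 44 interferon response genes, 3 rose and 0 fell, with a median of 0.24, where 7.42% of all genes rose and 8.72% fell. Ifih1, a sensor of double-stranded RNA, read 7.15 and 7.12 in undifferentiated cells, 8.63 and 7.71 with 5-AZA and between 7.98 and 8.73 without it (1.04 ± 0.29, adjusted p = 0.0358). Usp18 (2.11 ± 0.61) and Isg20 (0.61 ± 0.14), an interferon-induced protease and nuclease, rose as well, and none of the list passed against differentiated cells. These calls rested on single arrays: 0 genes of the list rose without 5-AZA array 1 and 8 without 5-AZA array 2, and 1 rose without undifferentiated array 1, undifferentiated array 2 or differentiated array 1. The calls of Ifih1, Usp18 and Isg20 reached an adjusted p of up to 0.195, 0.234 and 0.117.

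Some genes passed the test both against undifferentiated cells and against cells differentiated without the drug. Passing both does not require that the level with 5-AZA lie outside those of the other groups. Of these genes, the 6 with the largest positive and the 6 with the largest negative difference from differentiated cells are described. Rpl39l, a ribosomal protein gene typical of testis, read 5.86 and 6.43 in undifferentiated cells, 8.48 and 8.73 with 5-AZA and 6.19, 6.45, 7.09 and 6.89 without it. It rose by 2.46 ± 0.34 and by 1.95 ± 0.29 against differentiated cells (adjusted p = 0.035). Tcfl5, a helix-loop-helix factor of spermatocytes, read 6.51 and 6.36, then 8.68 and 8.66, and 6.86, 6.54, 6.84 and 7.15 without the drug. It rose by 2.23 ± 0.25 and by 1.82 ± 0.21 (adjusted p = 0.0167). For both genes the 5-AZA arrays lay more than 1 above every other array. Rpl39l is a close copy of Rpl39, whose signal its probe set could share. Tcfl5 was read by a single probe set whose suffix marks shared sequence.

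Tgfb3, a ligand of the TGF-beta family, read 5.48 and 5.28 in undifferentiated cells, 8.22 and 7.28 with 5-AZA and between 5.35 and 6.37 without it (2.37 ± 0.35, and 1.90 ± 0.31 against differentiated cells, adjusted p = 0.0438). The gene model Gm9222, read by a single probe set that may pick up related transcripts, rose by 1.95 ± 0.24 and by 1.86 ± 0.21 (adjusted p = 0.0135). Wfdc18, a whey acidic protein domain gene, read 5.73 and 6.18, then 9.56 and 9.62, and between 7.60 and 8.41 without the drug. It rose by 3.64 ± 0.24 and by 1.58 ± 0.21 (adjusted p = 0.0272), so that it was also the member that differed most from undifferentiated cells. The single probe set of Wfdc18 also carries a suffix that marks shared sequence. Mybl2, described above, had the largest positive difference from differentiated cells.

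Among the falling genes, Ch25h, which makes 25-hydroxycholesterol, read 7.28 and 7.66 in undifferentiated cells, 5.79 and 6.25 with 5-AZA and between 7.69 and 8.34 without it. It fell by 1.45 ± 0.32 and by 2.04 ± 0.28 (adjusted p = 0.0305). Abcg2, an efflux transporter, read 10.49 and 9.77, then 8.63 and 7.76, and between 9.58 and 10.50 without the drug, and fell by 1.93 ± 0.35 and by 1.92 ± 0.30 (adjusted p = 0.0382). Undifferentiated and drug-free differentiated arrays overlapped for Abcg2, and both 5-AZA arrays lay below them. Sema3c, a secreted semaphorin, read 10.87 and 10.74, then 8.26 and 7.59, and between 9.13 and 10.22 without the drug, and fell by 2.88 ± 0.34 and by 1.82 ± 0.29 (adjusted p = 0.0438).

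Il18r1, the receptor chain for interleukin-18, read 7.71 and 7.51 in undifferentiated cells, 7.08 and 6.74 with 5-AZA and between 8.31 and 8.80 without it, and fell by 0.70 ± 0.18 and by 1.68 ± 0.16 (adjusted p = 0.00821). Fgfbp1, a secreted carrier of fibroblast growth factors, read 11.75 and 11.62, then 10.68 and 10.44, and between 11.87 and 12.46 without the drug, and fell by 1.13 ± 0.18 and by 1.53 ± 0.16 (adjusted p = 0.00941). Smpdl3b, a phosphodiesterase of the cell surface, fell by 1.25 ± 0.29 and by 1.61 ± 0.25 (adjusted p = 0.0385). For Ch25h, Il18r1 and Fgfbp1 the drug-free differentiated arrays were all above the undifferentiated arrays and the 5-AZA arrays all below them. Of the 12 genes, the difference of Mybl2 from differentiated cells held without each array in turn, and that of the other 11 ended without 5-AZA array 2, with an adjusted p from 0.0591 for Gm9222 to 0.344 for Sema3c. The differences of Il18r1 and Fgfbp1 ended only there, whereas those of the remaining 9 ended without at least 1 other array too, with the most removals, 10, for Tgfb3. Against undifferentiated cells, the calls of Il18r1 and Smpdl3b ended without 5-AZA array 2 or either undifferentiated array (adjusted p up to 0.196 and 0.104), and that of Ch25h without 5-AZA array 1 or undifferentiated array 2 (adjusted p up to 0.0859).

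**Figure D5:**
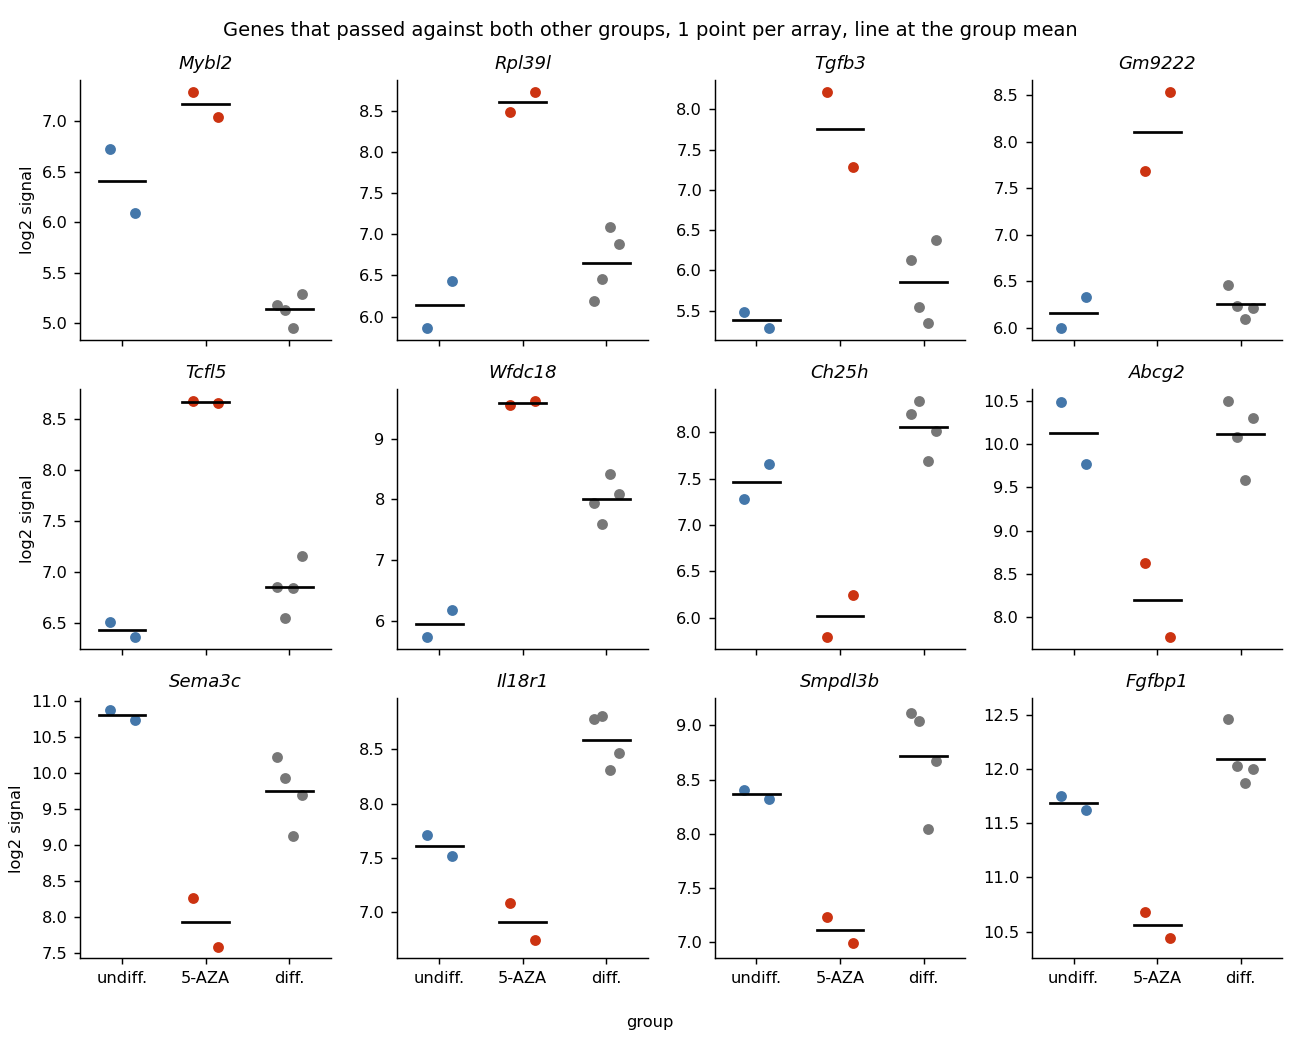
Log2 signal of the 12 genes that passed the test against both other groups with the largest differences from differentiated cells, in the 2 undifferentiated arrays (blue), the 2 arrays with 5-AZA (red) and the 4 arrays differentiated without it (grey), with a line at each group mean and a separate axis per gene. In every panel both red points lie outside the range of the blue and grey points, which the choice of the genes from these same arrays favours.

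Markers of other cells of the skin were measured beside these changes, where 7.42% of all genes rose and 8.72% fell. Of 23 fibroblast markers, 4 rose and 0 fell, with a median of 0.40, and the mean level was 6.29 and 5.75 in undifferentiated cells, 6.81 and 6.28 with 5-AZA and between 5.85 and 6.58 without it. The groups overlapped on this mean, array 1 being higher than array 2 in both. Thy1 (1.60 ± 0.27), Fn1 (1.31 ± 0.29), Col6a3 (1.84 ± 0.47) and Col6a2 (1.13 ± 0.34) rose. Without 5-AZA array 1 or undifferentiated array 1, 1 of these markers rose, and without undifferentiated array 2, 2, and the calls of Fn1, Col6a3 and Col6a2 ended without 5-AZA array 1 or undifferentiated array 1, among others, and reached an adjusted p of up to 0.0866, 0.156 and 0.241. Of 12 melanocyte markers Mitf rose (1.32 ± 0.37, adjusted p = 0.0384), which ended without 5-AZA array 2, undifferentiated array 1 or differentiated array 1 (adjusted p up to 0.259). All 12 were higher with 5-AZA than in cells differentiated without it, by a median of 0.30 and with 0 calls. Of 20 immune markers, Csf1r rose (1.12 ± 0.11) and Lyz2 fell (-1.61 ± 0.46), and the call of Lyz2 ended without either array of either group (adjusted p up to 0.161). Tagln, a smooth muscle gene, rose by 1.40 ± 0.22 among 19 endothelial and muscle markers, of which 3 rose. Of 22 hair follicle and sebaceous markers, 1 rose and 2 fell. The part of such cells in the results was not tested.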

How the data were processed

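Keratinocyte RNA was hybridized to 10 Affymetrix whole-genome mouse arrays, and the 4 arrays of 5-AZA and undifferentiated cells are compared here. The authors deposited log2 signals made by RMA (background correction, quantile normalization and summary per probe set) in Affymetrix Expression Console, whose versions are not given in the sources used here. RMA draws low signals toward a floor, which understates folds of dim genes, and scanner files, slides and scan times were not used here. Of 45101 probe sets, 34958 with 1 gene symbol were averaged into 18194 genes, while 932 with several symbols and 9211 without one were left out. Groups came from the labels.

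limma 3.58.1 (R 4.3.3) was fitted to all 10 arrays with a coefficient per group and 6 residual degrees of freedom, so that all groups share one estimate of the spread, and p-values were adjusted by Benjamini-Hochberg over all genes. Tested on simulated data of 18194 genes for this contrast, the fit recovered 74% of 100 genes changed by log2 1 and 95% of 100 changed by log2 2. It made 7 false calls among the genes left unchanged. The simulated noise was independent between genes and arrays, so deviations that arrays share were not part of it. With 2 arrays in each group compared, precision is limited by their number.

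The comparison and the gene lists were chosen with earlier results of these data known. The text names genes that the study names, the 8 largest non-overlapping rises and falls, up to 4 members of each list by adjusted p and the 6 largest positive and negative differences from differentiated cells among genes that passed both contrasts. Others are marked as chosen after their values were seen. The alternatives were other centring, normalization, probe set and intensity filters, an intensity trend, other arrays in the fit, the replicate number as a block, a minimum fold, the methods' t-test and the removal of each array. Promoter sequences are those of RefSeq.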

Additional observations from a re-analysis of the deposited data

Results flagged for a closer look

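Of 146 sets of 4 differentiated arrays, 1 per named gene, 4 held an array far from the other 3, and chance gives about 1 in 20. In differentiated array 3, Ttk read 3.87 against 4.36 to 4.44 in the others and Dnmt1 read 6.06 while the highest of the others read 7.07. In differentiated array 2, Cldn4 read 11.7 against 12.8 to 12.9 and Sprr1a read 13.6 against 14.3.

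The change over undifferentiated cells differed between differentiation with and without 5-AZA in the genes that follow, by limma's test of the difference itself. Among genes higher with the drug, the difference was 2.03 for Mybl2, 1.95 for Rpl39l, 1.90 for Tgfb3, 1.86 for Gm9222, 1.82 for Tcfl5, 1.58 for Wfdc18, 1.32 for Gpx2 and 1.18 for Rhox5. Among genes lower with it, the difference was -2.04 for Ch25h, -1.92 for Abcg2, -1.82 for Sema3c, -1.68 for Il18r1, -1.61 for Smpdl3b, -1.53 for Fgfbp1 and -1.38 for Ivl. Adjusted p ran from 0.00607 for Mybl2 to 0.0438 for Sema3c and Tgfb3. Mybl2 was the member whose changes had opposite signs, 0.76 with the drug and -1.27 without it, and so were Ch25h (-1.45 and 0.59), Il18r1 (-0.70 and 0.98), Smpdl3b (-1.25 and 0.35), Fgfbp1 (-1.13 and 0.40) and Ivl (-0.58 and 0.80). Those of the other 9 genes shared a sign.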

How the results depend on the processing

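Most counts of genes against undifferentiated cells stayed within 1.5 times of 1350 and 1586, and the exceptions follow. A minimum log2 fold change of 0.5 in the test left 390 that rose and 415 that fell, and the methods' t-test after Benjamini-Hochberg left 0 and 0, against 1644 and 1285 unadjusted. Raising the threshold on the difference to 1 left 636 genes higher and 662 lower. Against differentiated cells, the calls were 14 and 10 with only the compared groups in the fit, 1 and 0 with the minimum fold, 0 and 0 by the methods' t-test after adjustment, and 821 and 385 without it. Median centring and quantile normalization gave 32 and 38 that fell. Over the removal of single arrays, 797 to 1476 rose and 830 to 1614 fell against undifferentiated cells, and 1 to 33 and 1 to 24 against differentiated cells.

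The labels number the replicates of both groups, and same-numbered arrays deviated together (correlation 0.404), but with 2 pairs the numbers alone do not pair them. With the replicate block, 2023 genes rose and 2205 fell, and 213 and 185 against differentiated cells.

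Of 124 named genes that passed, 92 held without each array in turn. The minimum fold ended 44 calls, the methods' t-test 33 unadjusted (Stfa3, Stfa2l1, Trp63, Itga6, Thy1 and Abcg2 among them) and all 124 adjusted, and only the compared groups in the fit 10 (Krt5, Mybl2, Hrnr, Sprr2h, Ifih1, Usp18, Creb3, Epgn, Ldha and Hk2). The other settings apart from single arrays ended 0 to 3. Of the 124 genes, 119 had a value without the probe sets of shared sequence and 117 without the dimmest 40% of genes. Signs turned only in genes that did not pass. Over the removal of single arrays, Lor ran from -0.82 to 0.19 (above 0 without 5-AZA array 1 or undifferentiated array 2, 0.13), Cebpb from -0.31 to 0.85, Jun from -0.48 to 0.37 (0.17 without undifferentiated array 1), Fos from -0.60 to 0.25, Junb from -0.66 to 0.27, Fosl2 from -0.15 to 0.16 (-0.065 without undifferentiated array 1) and Star from -0.060 to 0.079. With the brightest probe set, Krt14 was -0.058, Egfr -0.48, Fosl2 -0.29 and Star -0.016, with median centring Fosl2 was -0.013 and Star -0.0098, and with quantile normalization Star was -0.051. The causes of these shifts were not tested. Signal over background limits the genes read below the median probe set.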
